A study of Mus musculus with 9 samples.

Results

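The 10 genes described here, Prm1, Prm2, Prm3, Tnp1, Tnp2, Odf1, Odf2, Smcp, Akap3 and Akap4, encode proteins of the sperm nucleus and the sperm tail. They were taken as every probe set whose single platform gene symbol is one of these names, which gave 22 probe sets for 10 of the 18193 genes named on the array. All 22 passed the filter on low signal. The cells were spermatogonia preparations from testes of adult Balb/C mice, and both diet groups are set against control mice on a normal diet. The tested diet lacked vitamin A (VAD, vitamin A deficiency), and mice were taken after 25 weeks (3 arrays) or 18 weeks (3 arrays), with 3 control arrays. Each preparation came from testes of 2 mice, was plated overnight and was separated by sedimentation, with a purity that the submitters put above 90%. Nothing in the labels ties a replicate to a separate preparation or gives the mice's exact age, so p-values measure the spread between these arrays, which may be technical.

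When round spermatids become sperm, histones give way to transition proteins and these to protamines, small arginine-rich proteins that pack the DNA. In the same weeks the tail is built around the axoneme, with outer dense fibres, a mitochondrial sheath in the midpiece and a fibrous sheath in the principal piece. The genes for these parts are transcribed mainly after meiosis, and many of their mRNAs, the protamine mRNAs among them, are stored before they are translated. Retinoic acid, made from vitamin A, starts spermatogonial differentiation and meiosis, so the comparison asks whether transcripts of the last germ cell stages differ in cells sorted for the first. Transcripts from fewer spermatids and from less RNA per spermatid cannot be told apart in such bulk preparations.

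Prm1, Prm2, Prm3 and Tnp2 lie side by side on chromosome 16, on the same strand, with 8168 bases between their outermost starts. The 250 bases before the start are shown for the chromatin genes and both fibrous sheath scaffold genes, for Akap4 in the first of its windows. They were searched for a motif like the cyclic AMP response element, which the spermatid factor CREM is known to bind. Sequences are from RefSeq, build GRCm38.p6, 5′ to 3′ in the direction of the gene, and capitals mark each match to TGANGTCA on either strand.
Prm1, chr16:10796824-10797073, minus strand: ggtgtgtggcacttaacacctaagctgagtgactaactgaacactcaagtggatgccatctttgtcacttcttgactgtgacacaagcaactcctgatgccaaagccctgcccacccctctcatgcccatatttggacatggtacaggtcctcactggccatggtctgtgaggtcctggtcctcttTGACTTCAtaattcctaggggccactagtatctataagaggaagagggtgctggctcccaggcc
Prm2, chr16:10792106-10792355, minus strand: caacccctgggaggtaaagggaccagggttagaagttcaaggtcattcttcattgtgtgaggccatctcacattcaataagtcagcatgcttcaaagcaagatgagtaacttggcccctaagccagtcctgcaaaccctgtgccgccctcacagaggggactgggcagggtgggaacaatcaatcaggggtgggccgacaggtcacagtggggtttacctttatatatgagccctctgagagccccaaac
Prm3, chr16:10790915-10791164, minus strand: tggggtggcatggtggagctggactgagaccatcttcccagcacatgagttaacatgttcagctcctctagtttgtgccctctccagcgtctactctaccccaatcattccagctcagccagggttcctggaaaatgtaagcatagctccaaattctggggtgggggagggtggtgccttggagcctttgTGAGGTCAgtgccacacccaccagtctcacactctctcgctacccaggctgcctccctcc
Tnp1, chr1:73015900-73016149, minus strand: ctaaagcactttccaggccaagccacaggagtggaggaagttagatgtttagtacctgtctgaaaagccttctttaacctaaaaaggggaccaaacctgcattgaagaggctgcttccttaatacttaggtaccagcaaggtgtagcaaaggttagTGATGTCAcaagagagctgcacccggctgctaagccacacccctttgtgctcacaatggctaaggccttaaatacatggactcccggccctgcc
Tnp2, chr16:10788656-10788905, minus strand: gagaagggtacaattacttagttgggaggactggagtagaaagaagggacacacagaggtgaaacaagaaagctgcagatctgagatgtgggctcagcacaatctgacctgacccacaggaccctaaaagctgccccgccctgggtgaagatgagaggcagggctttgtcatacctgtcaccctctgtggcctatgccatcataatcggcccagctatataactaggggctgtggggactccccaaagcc
Akap3, chr6:126852848-126853097, plus strand: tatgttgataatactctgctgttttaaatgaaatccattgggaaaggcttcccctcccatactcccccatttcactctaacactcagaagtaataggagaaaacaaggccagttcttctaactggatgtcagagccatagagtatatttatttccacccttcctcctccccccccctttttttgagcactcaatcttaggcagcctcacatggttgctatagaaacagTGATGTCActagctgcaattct
Akap4, chrX:7067265-7067514, plus strand: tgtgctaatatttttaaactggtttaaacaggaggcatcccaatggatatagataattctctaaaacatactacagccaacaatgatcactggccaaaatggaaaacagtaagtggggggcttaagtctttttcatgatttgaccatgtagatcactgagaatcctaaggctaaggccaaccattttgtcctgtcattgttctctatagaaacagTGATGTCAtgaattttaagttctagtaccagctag
Upstream matches were present in 5 of the 9 genes that have a window, namely Prm1 (TGACTTCA, read on the opposite strand, first base at −64 from the start), Prm3 (TGAGGTCA, −60), Tnp1 (TGATGTCA, −94), Akap3 (TGATGTCA, −22) and Akap4 (TGATGTCA, −35). A second Akap3 match starts at −1 and a Smcp match at 25, in part or wholly inside the transcribed stretch. No match lay upstream of Prm2, Tnp2, Odf2 (4 windows) or Smcp. Akap4 has a second window, chrX:7067960-7068209, which held no match. Of all 32851 windows in the table, 7.49% held the motif. That share is per window, whereas the count of 5 takes a gene with a match in any of its windows. TATAAA, searched on both strands with no overlap with the first motif, was found in the window of Prm2 alone among the 9 genes, against 12.4% of all windows. A match, or the lack of one, describes these letters only, and no other form of the response element was searched.

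The arrays did not form an even set. VAD 25-week replicate 3 and control replicate 3 were dim, with trimmed mean signals of 23.2 and 22.9, while the other 7 arrays lay between 55.2 and 185.5. VAD 25-week replicates 1 and 2 had a mean poly-A control signal of 270 and 338, against at most 10.6 on the other arrays, and no control array shared that property. Signals were therefore set to a common distribution by quantile normalization and compared with limma, with a block for the dim pair and a Benjamini-Hochberg adjusted p under 0.05 over 27022 probe sets (called). With group as the model's only term, limma called 0 probe sets in each comparison, and the block was adopted after that was known.

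The members themselves were split by the dim pair. Of the 22 probe sets, 10 were lower on both dim arrays than the mean of the other 2 arrays of the same group, 7 were higher than that mean on both and 5 were mixed. Prm1 probe set 1437054_x_at was lower by 3.26 and 2.15 log2 units on the dim VAD 25-week and control arrays. Another Prm1 probe set, 1415955_x_at, went the other way, by 1.01 and 1.65. All 3 Prm1 probe sets carry the suffix that marks possible cross-hybridisation, and the cause of their disagreement was not tested. The only Tnp2 probe set carries the suffix for probes shared by several transcripts.

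**Figure D1:**
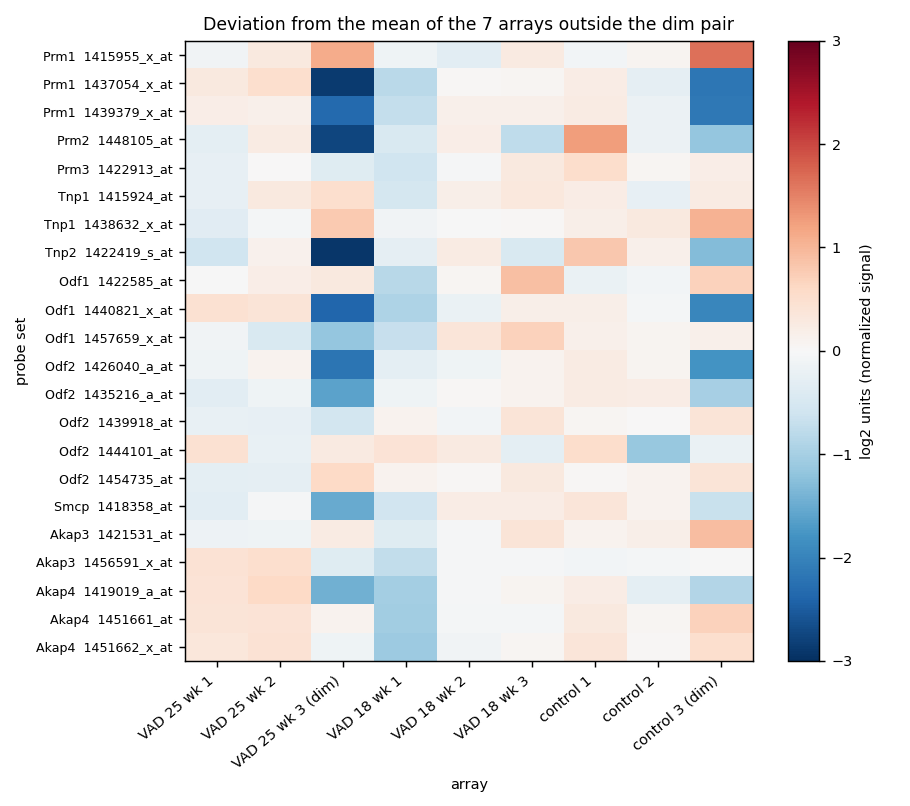
Deviation of each of the 22 probe sets (rows) on each of the 9 arrays (columns) from its mean over the 7 arrays outside the dim pair, in log2 units of normalized signal, where red is higher and blue lower. The 2 dim arrays stand apart in both directions, with 10 probe sets lower and 7 higher on both than the mean of the other 2 arrays of the group.

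At 25 weeks, 2 of the 22 probe sets fell relative to control and 0 rose, against 14.9% called of all probe sets (6.32% lower and 8.54% higher). The share of members called, at 2 of 22, is near that background, and before adjustment 8 of 22 had a limma p under 0.05, against 30.1% of all probe sets. The called probe sets were those of Tnp2, a transition protein, and of Odf2, an outer dense fibre protein that is also a centrosome component in other cells. For each gene 1 probe set is used below, the brightest kept one with cross-hybridising suffixes used last. The median difference over the 22 probe sets was −0.15 and over all kept probe sets −0.01.

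Tnp2 had normalized log2 signals of 7.89, 8.62 and 5.57 on the VAD 25-week arrays, 8.22, 8.75 and 8.03 on the VAD 18-week arrays, and 9.31, 8.65 and 7.19 on the control arrays. The lowest array of both the 25-week and the control group is its dim one, and the groups overlap. With the dim block, Tnp2 fell by 1.03 ± 0.27 log2 units at 25 weeks (SE, n = 3 per group, 95% interval −1.63 to −0.43, limma adjusted p = 0.0278). The dim arrays alone differed by −1.63 and the other arrays by −0.73. The call was lost with group alone (limma adjusted p = 0.674), without the dim arrays (−0.74, limma adjusted p = 0.119), with array weights (−0.73, limma adjusted p = 0.0583), without the variance trend (limma adjusted p = 0.0877) and with the replicate number as a further block (limma adjusted p = 0.0529). It was also lost without control replicate 1 (−0.91, limma adjusted p = 0.106), without control replicate 3 (−0.73, limma adjusted p = 0.125), without VAD 25-week replicate 1 (−0.90, limma adjusted p = 0.102) and without VAD 25-week replicate 3 (−0.73, limma adjusted p = 0.124). On the deposited scale the sign turned, to 0.08, where the median of all kept probe sets was 0.93, and relative to that median Tnp2 stood at −0.84.

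Odf2 probe set 1435216_a_at had 11.11, 11.29 and 9.81 on the VAD 25-week arrays, 11.29, 11.46 and 11.52 on the VAD 18-week arrays, and 11.67, 11.64 and 10.42 on the control arrays. The dim 25-week array is below the dim control array and the other 25-week arrays are below the other control arrays, though the ranges overlap. Outside the dim pair the arrays were not alike in brightness. Their trimmed mean signals were 185.5 and 143.2 at 25 weeks and 58.1 and 59.6 in control. The difference at 25 weeks was −0.51 ± 0.10 (SE, n = 3 per group, 95% interval −0.73 to −0.28, limma adjusted p = 0.00855). It stayed called without the dim arrays (−0.42, limma adjusted p = 0.0249) and was lost with group alone (limma adjusted p = 0.726) and without the variance trend (limma adjusted p = 0.0891). Without the dim arrays the 25-week group is only the pair with high poly-A signal, so group and array set cannot be told apart there. On the deposited scale it was 0.31, which is −0.62 relative to the median of all kept probe sets. The other 4 Odf2 probe sets were not called, with differences between −0.49 and 0.44.

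Among the other chromatin genes none was called at 25 weeks. Prm2, the second protamine gene of mouse sperm, had 10.35, 10.89 and 7.89 on the VAD 25-week arrays, 10.20, 10.84 and 9.88 on the VAD 18-week arrays, and 11.91, 10.46 and 9.48 on the control arrays. Its difference was −0.91 ± 0.35 (SE, n = 3 per group, limma adjusted p = 0.108). Control replicate 1 is the highest Prm2 value of all arrays. The difference moved to −0.59 without control replicate 1, −0.54 without control replicate 3, −0.55 without VAD 25-week replicate 3 and −0.52 without both dim arrays (limma adjusted p = 0.342, 0.391, 0.392 and 0.393). Without control replicate 2 it was −1.42 (limma adjusted p = 0.0125). Prm3, which in mouse encodes a small acidic protein, had 6.97, 7.22 and 6.86 in VAD 25-week preparations, 6.62, 7.19 and 7.50 in VAD 18-week preparations, and 7.75, 7.28 and 7.42 in control preparations. All 3 of its 25-week values are below all 3 control values, at a difference of −0.47 ± 0.23 (SE, limma adjusted p = 0.194). Such non-overlap downwards was seen in 7.11% of all probe sets and in 3 of the 22, the other two being Odf1 1457659_x_at and Odf2 1439918_at. The first protamine gene, Prm1, differed by 0.05 (95% interval −0.51 to 0.62) and the first transition protein gene, Tnp1, by 0.10 (−0.39 to 0.58), with limma adjusted p of 0.912 and 0.80.

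**Figure D2:**
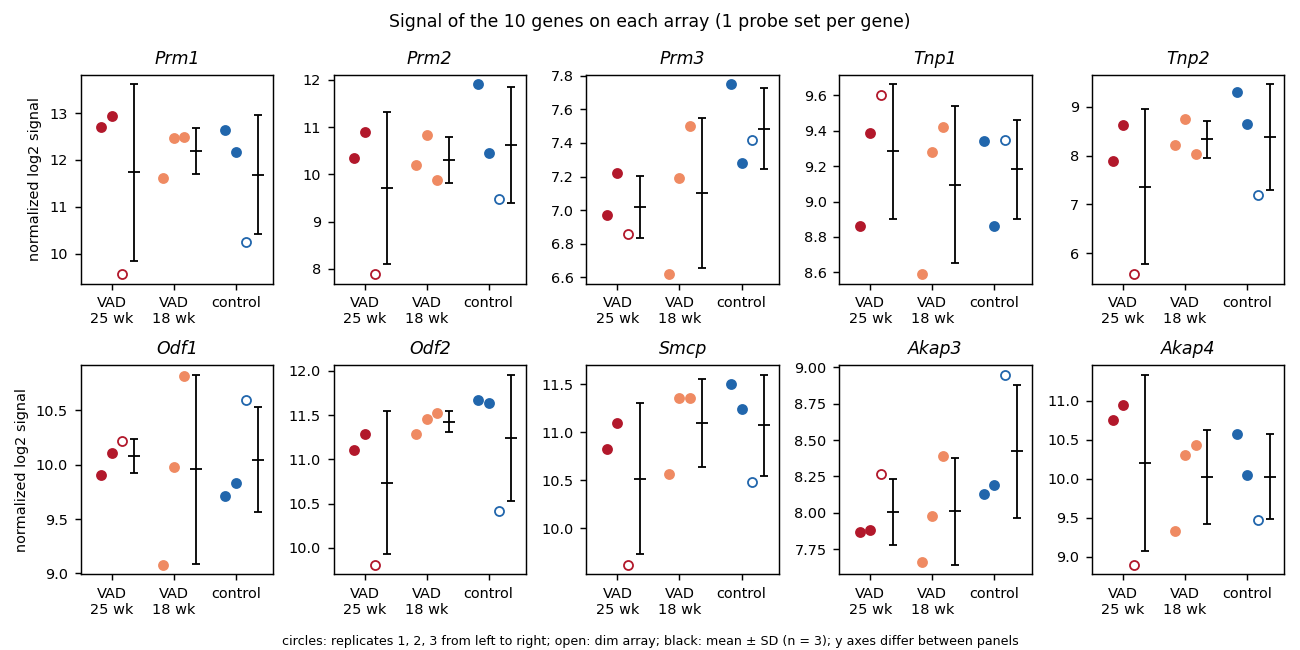
Normalized log2 signal (y axis) of the probe set that represents each of the 10 genes on the VAD 25-week, VAD 18-week and control arrays, with open circles for the dim arrays and bars for the mean and SD of 3 arrays. Tnp2 reached 5.57 on the dim 25-week array, and Odf2 on the other 2 such arrays was 11.11 and 11.29, below the 11.67 and 11.64 of the control arrays.

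Of the tail genes that were not called, Smcp, whose product is a cysteine-rich protein of the mitochondrial capsule, came closest to the threshold. Smcp had 10.83, 11.10 and 9.62 on the VAD 25-week arrays, 10.57, 11.36 and 11.36 on the VAD 18-week arrays, and 11.50, 11.24 and 10.48 on the control arrays. The dim 25-week array lay below the dim control array, and the other 25-week arrays lay below the other control arrays, which were not as bright. The difference was −0.56 ± 0.20 (SE, n = 3 per group, limma adjusted p = 0.0813). Without VAD 18-week replicate 1, an array outside this comparison that enters its shared spread and scale, Smcp (limma adjusted p = 0.0213) and Odf1 1457659_x_at (−0.71, limma adjusted p = 0.0357) passed as well. Without the dim arrays Smcp was at −0.37 (limma adjusted p = 0.276) and Odf1 1457659_x_at at −0.39 (limma adjusted p = 0.463). The Odf1 1457659_x_at difference was −0.40 both without control replicate 3 and without VAD 25-week replicate 3. Odf1, the major outer dense fibre protein, had a difference of 0.03 (95% interval −0.68 to 0.74) in the probe set that represents it. Akap3 and Akap4 encode the scaffolds that hold protein kinase A in the fibrous sheath, and they stood at −0.41 (−0.82 to −0.01) and 0.17 (−0.46 to 0.81), with limma adjusted p of 0.153 and 0.725. The other, brighter Akap3 probe set, 1456591_x_at, went the other way, at 0.23 (−0.23 to 0.69, limma adjusted p = 0.496).

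At 18 weeks, 0 of the 22 probe sets was called against control, where 1.47% of all probe sets were. Before adjustment 6 of the 22 had a limma p under 0.05, against 16.5% of all probe sets, and the smallest limma adjusted p was 0.194. The dim offset behind these values comes from the control and 25-week arrays, since no 18-week array was dim. Prm2 differed by −1.05 ± 0.38 (SE, n = 3 per group, limma adjusted p = 0.194) and Tnp2 by −0.80 ± 0.29 (limma adjusted p = 0.20). With group alone these were −0.31 and −0.05, and Prm2 moved to −0.65 without control replicate 1 and −1.69 without control replicate 2. Among the 22, 18 differences were below 0, as were 50.9% of all, with a median of −0.28, against −0.01 over all kept probe sets. With group alone 15 of the 22 were below 0, and 9 of the 22 signs differed from those with the block. Both diet groups were set against the same 3 control arrays, so the 25-week and 18-week values are not independent of each other.

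**Figure D3:**
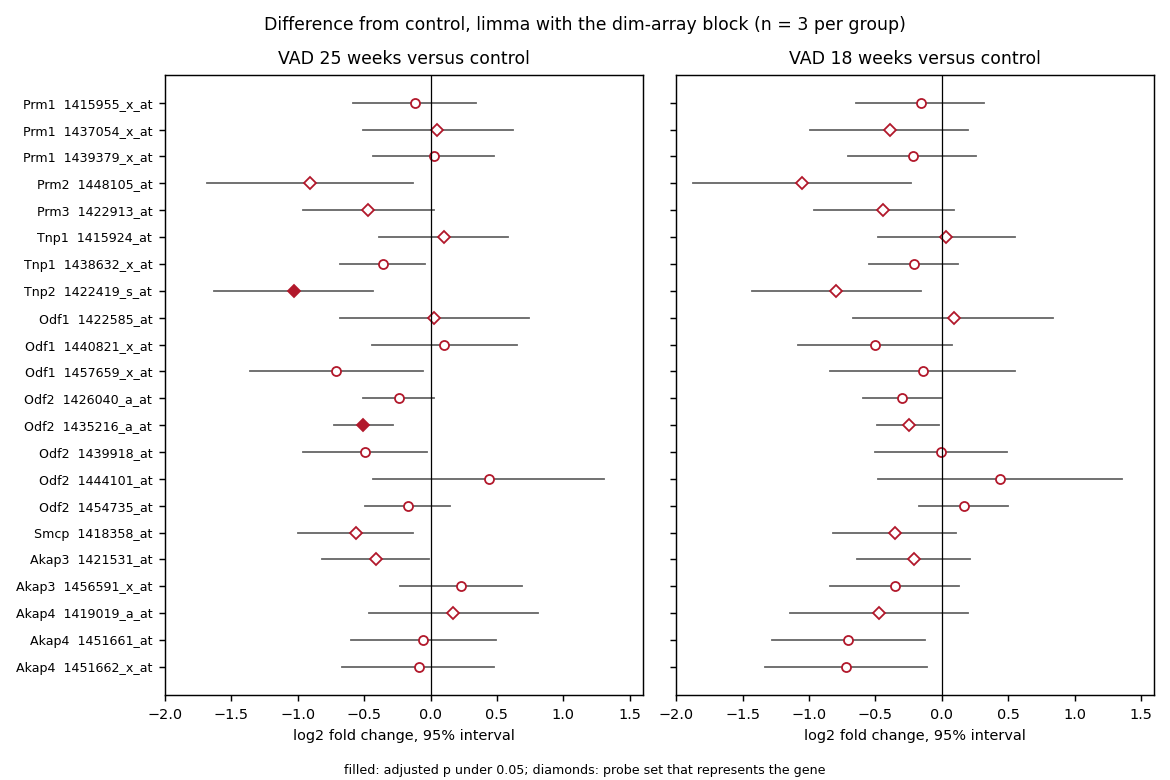
Log2 fold change (x axis) with its 95% interval for the 22 probe sets (rows), VAD 25 weeks versus control on the left and VAD 18 weeks versus control on the right, from limma with the dim block. Filled symbols, on the left alone, are the 2 called probe sets, Tnp2 at −1.03 and Odf2 at −0.51.

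Akap4, the main structural protein of the fibrous sheath, has 3 probe sets. Of these, 1451661_at had 10.11, 10.14 and 9.83 on the VAD 25-week arrays, 8.68, 9.68 and 9.67 on the VAD 18-week arrays, and 10.03, 9.79 and 10.43 on the control arrays. All 18-week values are below those of both other groups, and such non-overlap downwards from control was seen in 2 of the 22 probe sets and in 7.60% of all. The difference from control was −0.71 ± 0.26 at 18 weeks (SE, n = 3 per group, limma adjusted p = 0.211) and −0.06 ± 0.25 at 25 weeks (limma adjusted p = 0.904). The other Akap4 probe sets overlapped with control at 18 weeks. The representing one, 1419019_a_at, differed by −0.47 ± 0.31 (limma adjusted p = 0.479), and 1451662_x_at by −0.72 ± 0.28 (limma adjusted p = 0.227). With group alone the values were −0.74 for 1451661_at, −0.01 for 1419019_a_at and −0.68 for 1451662_x_at. VAD 18-week replicate 1 is the lowest array for all 3 Akap4 probe sets outside the dim pair, and without it the 18-week difference of 1451661_at was −0.38 (limma adjusted p = 0.392).

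The comparison of 25 with 18 weeks called 0 of the 22 members and 0% of all probe sets, while 6 of 22 members and 11.5% of all probe sets had an unadjusted limma p under 0.05. The 3 Akap4 probe sets differed by 0.63 to 0.65, with limma adjusted p between 0.367 and 0.452. Akap3 1456591_x_at differed by 0.58 ± 0.22 (SE, n = 3 per group, limma adjusted p = 0.341) and Odf2 1435216_a_at by −0.25 ± 0.11 (limma adjusted p = 0.40). A miss of the threshold does not show that the groups were alike.

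The scale between arrays set the sign of most differences from control at 25 weeks. On the deposited scale the median of the 22 probe sets at 25 weeks was 0.63 and that of all kept probe sets 0.93, and 21 of the 22 differences were above 0. The members' median thus lay below that shift, and under median centring their median was −0.22, against 0.08 for all kept probe sets. Tnp2 and Odf2 were called under median centring too, at −0.76 (limma adjusted p = 0.0468) and −0.54 (limma adjusted p = 0.0273). At 18 weeks the medians of the 22 were −0.28, −0.55 and −0.38 after quantile normalization, median centring and on the deposited scale, below the −0.01, −0.05 and 0.12 of all kept probe sets.

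**Figure D4:**
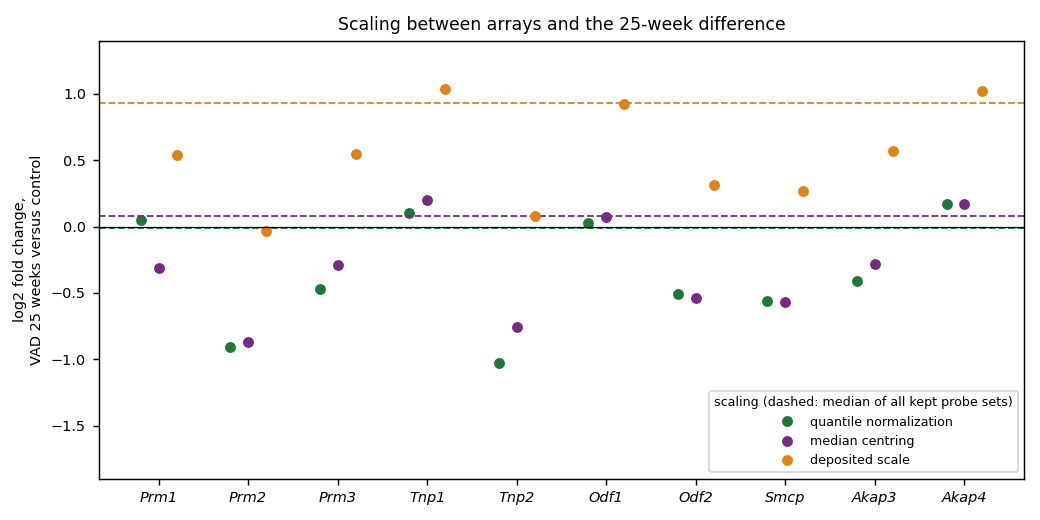
Log2 fold change, VAD 25 weeks versus control, of the 10 genes (x axis) under quantile normalization, median centring and the deposited scale, with dashed lines for the median of all kept probe sets under each (−0.01, 0.08 and 0.93). Tnp2, Prm2, Prm3, Odf2, Smcp and Akap3 lie below the line of each scaling, and on the deposited scale Prm2, at −0.03, is the sole gene below 0.

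A ratio within an array needs no scale between arrays. Each gene's deposited log2 signal was set against the median of the 10 genes on the same array. Smcp stood at 0.64, 0.56 and 0.41 on the VAD 25-week arrays, 1.31, 1.19 and 1.17 on the VAD 18-week arrays, and 1.35, 1.30 and 1.10 on the control arrays. For Odf2 the ratios were 0.88, 0.73 and 0.60 at 25 weeks, 1.95, 1.28 and 1.32 at 18 weeks, and 1.51, 1.70 and 1.02 in control. Both genes at 25 weeks lie below all 6 other arrays, with no overlap, and the dim pair follows its groups. The same ratio, taken for every kept probe set, was lower without overlap in 3.91% of them against control and 5.84% against 18 weeks, beside 2 of the 10 genes against control and 3 of 10 against 18 weeks, where Prm1 is added. The exact permutation test of 3 against 3 arrays cannot go below p = 0.1 (two-sided), the value it gives wherever groups do not overlap. It therefore adds nothing to the non-overlap by which these genes were named. The reference is the median of the same 10 genes, so a ratio can also move through the other genes. Tnp2 overlapped, at −2.20, −1.85 and −3.15 on the VAD 25-week arrays and −0.84, −1.33 and −2.22 on the control arrays.

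**Figure D5:**
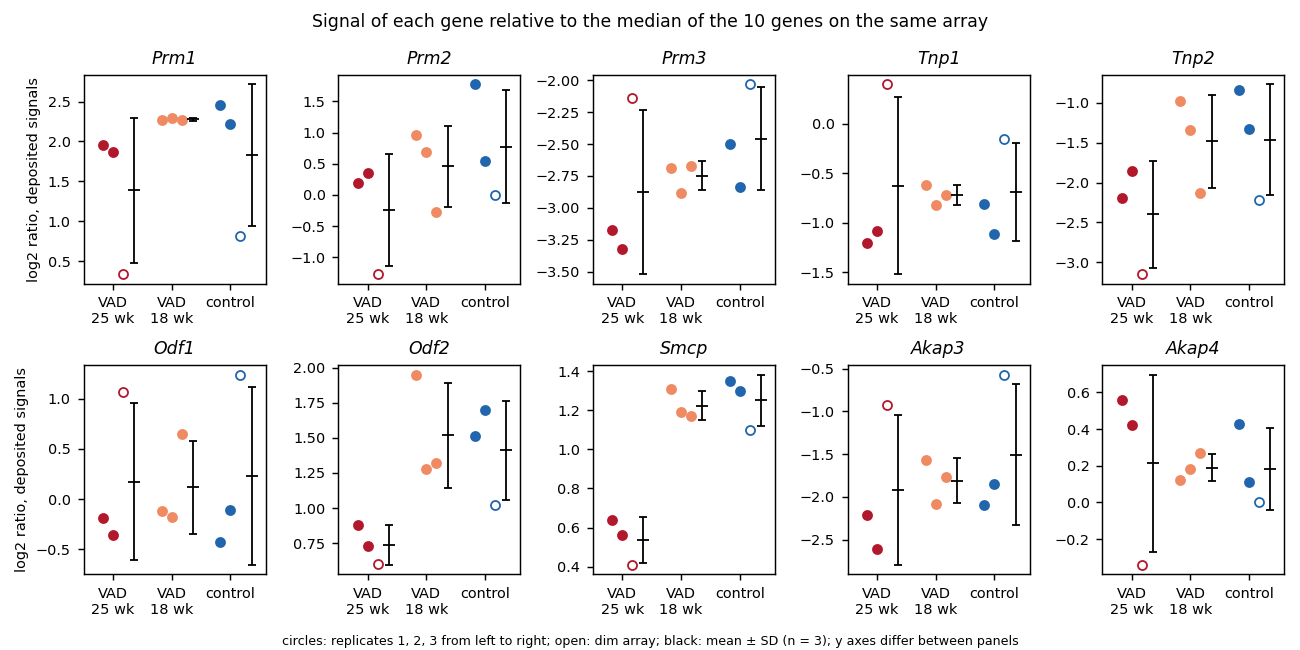
Log2 ratio of each gene's deposited signal to the median of the 10 genes on the same array (y axis), for the VAD 25-week, VAD 18-week and control arrays, with open circles for the dim arrays and bars for the mean and SD of 3 arrays. Smcp and Odf2 (1435216_a_at) at 25 weeks, at 0.41 to 0.64 and 0.60 to 0.88, lie below all 6 other arrays.

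Lists of related genes, which were drawn up with earlier results of these data known, were counted with 1 probe set per gene at 25 weeks against control. Of all probe sets 14.9% were called in that comparison, 8.54% higher and 6.32% lower. Of 11 measured fibrous sheath genes, 4 fell and 0 rose, and the list's median difference was −0.39. These were Fsip1, which binds the sheath's scaffold (−0.96 ± 0.20, SE), the sperm aldolase Aldoart2 (−0.86 ± 0.20), the calcium-binding Cabyr (−0.87 ± 0.21) and Spa17 (−0.63 ± 0.16), with limma adjusted p between 0.00931 and 0.0219. On the deposited scale all 4 turned to above 0, at 0.10 to 0.27, below the median of 0.93. Of 13 outer dense fibre and mitochondrial sheath genes, 1 fell, Odf4 (−0.84 ± 0.11, limma adjusted p = 0.00131, deposited scale 0.06), and the list's median was −0.24. Of 13 spermatid chromatin genes, Kdm3a, a histone demethylase needed for Tnp1 and Prm1 transcription in mouse, rose (0.51 ± 0.14, limma adjusted p = 0.0319), and Camk4, a kinase of Prm2 protein, fell (−0.64 ± 0.19, limma adjusted p = 0.0475, deposited scale 0.44).

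The list of spermatid transcription and mRNA storage held 13 measured genes, of which 1 rose and 3 fell. Crem, the activator of many spermatid genes, fell by 1.09 ± 0.14 log2 units (SE, limma adjusted p = 0.000977) and was at −0.10 on the deposited scale. Kif17, a motor that moves the coactivator of CREM, and Tarbp2, an RNA-binding protein that acts on stored Prm1 mRNA in mouse, fell by 0.55 and 0.45 (limma adjusted p = 0.0386 and 0.0293), and stood at 0.38 and 0.50 on the deposited scale. Piwil1, the MIWI protein of late meiosis and round spermatids, rose by 1.08 ± 0.13 (limma adjusted p = 0.000853). Of 18 other haploid-phase genes (median −0.42), 7 fell and 0 rose, among them the kinase gene Tssk1 (−0.86 ± 0.16), the acrosomal Spaca3 (−0.65 ± 0.14), the calcium channel gene Catsper1 (−0.74 ± 0.16) and Spem1 (−0.89 ± 0.21). Their limma adjusted p lay between 0.00667 and 0.0165, and on the deposited scale they were at 0.14 to 0.31. At 18 weeks Piwil1 (0.97 ± 0.14, limma adjusted p = 0.00957) and Zpbp, an acrosomal protein gene (−0.48 ± 0.10, limma adjusted p = 0.0476), were the only 2 genes called in these 5 lists, beside 1.47% of all probe sets.

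These list counts were small and moved with single arrays, and each was 0 with group alone. Without the dim arrays the counts called were 3 for the fibrous sheath, 2 for the outer dense fibre, 1 for the chromatin, 3 for the transcription and storage and 5 for the haploid-phase list. Among the named genes, Cabyr (limma adjusted p = 0.0797), Spem1 (0.0603), Tarbp2 (0.0554) and Camk4 (0.11) then missed the threshold. The fibrous sheath count was 2 without VAD 25-week replicate 1 or control replicate 2 and 1 without VAD 25-week replicate 2. The haploid-phase count was 3 without VAD 25-week replicate 1 or control replicate 1, and 4 with the replicate block. For transcription and mRNA storage it was 2 without VAD 25-week replicate 1 or 2 or control replicate 1 or 2. The 2 chromatin genes became 1 or 0 in each of the leave-one-out fits and 0 with the replicate block. The outer dense fibre count was 2 without VAD 25-week replicate 3, control replicate 3 or VAD 18-week replicate 1. Under median centring 0 chromatin, 2 outer dense fibre and 4 haploid-phase genes were called, and on the deposited scale 7 chromatin, 2 outer dense fibre, 1 fibrous sheath and 1 haploid-phase genes.

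Markers of other cells moved in the same comparison, in which 8.54% of all probe sets were called higher and 6.32% lower. Of 11 measured Sertoli cell markers 8 rose and 0 fell at 25 weeks, and their summed normalized signal was 652 to 1369 in VAD 25-week preparations, 598 to 1663 in VAD 18-week preparations and 227 to 277 in control preparations. Gata4 was not called, at −0.98 ± 0.34 (SE, limma adjusted p = 0.0766), and Sox9 and Amh were too low to pass the filter. Of 8 spermatogonial markers 2 rose, Id4 (1.15 ± 0.13, SE) and Kit (1.34 ± 0.32, limma adjusted p = 0.000628 and 0.0188). Gfra1 (−0.65) and Stra8 (−0.14) were below 0 and not called, and the rest were above 0 and not called. The sum of the 8 was 731 to 840 at 25 weeks, 615 to 715 at 18 weeks and 380 to 480 in control. Of 5 macrophage markers 4 rose and Adgre1 was not called, at −0.32. Their sums were 216 to 328, 143 to 195 and 124 to 276 in the same order of groups. Of 4 Leydig cell markers 1 rose, Cyp17a1, with sums of 285 to 314, 132 to 543 and 45 to 145. The dim arrays widen these ranges. Without them the sums at 25 weeks and in control were 652 to 712 and 227 to 277 for Sertoli cells. They were 216 to 247 and 124 to 132 for macrophages, and 285 to 298 and 135 to 145 for Leydig cells. The part of these cells in the differences of the 10 genes was not tested. Spermatid transcripts were measured on every array of preparations labelled as spermatogonia. By deposited signal on the 7 arrays outside the dim pair, Prm1 1437054_x_at ranked 26 to 188 of 45037 probe sets. Prm3, the dimmest of the 10 genes by the probe set that represents each, ranked 4491 to 7683. The other Prm1 probe sets disagreed, with 1439379_x_at at 50 to 202 and 1415955_x_at at 5965 to 7821. All 3 carry the suffix for possible cross-hybridisation. On the dim pair 1437054_x_at ranked 814 and 1443, and 1415955_x_at 2863 and 3913. How these ranks relate to the stated purity was not tested.

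Prm2 and Tnp2, neighbours in the chromosome 16 cluster, had profiles that correlated at r = 0.90 over the 7 arrays outside the dim pair. Other pairs of the cluster had lower values, 0.40 for Prm1 with Prm2 and 0.18 for Prm1 with Tnp2, and pairs outside it had higher ones, 0.93 for Prm3 with Smcp and 1 after rounding for Prm1 with Akap4. Over all 9 arrays, the genes whose profile was most like the median profile of the 10 were Aif1 (r = 0.987), 4930451I11Rik, 1700001K19Rik, Eya4, Zfyve1, Snx5, Cul4b, Cldnd2, Poli and Ubqlnl (r = 0.964), of 13606 genes compared. These arrays share the dim pair, and over the other 7 arrays the correlations were 0.839 to 0.964.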

How the data were processed

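Deposited values are Affymetrix probe set signal intensity, linear in scale, made with MAS5 per the submitters' processing notes. The sources used here give neither its version nor its scaling target. Per the labels' protocols, 100 ng of total RNA was amplified. The 9 arrays were grouped by their titles. After 64 control probe sets were left out, log2(signal + 3.259) was taken (3.259 being the 25th percentile of deposited signals, which understates folds of low signals), quantile-normalized, and filtered at the 40th percentile of probe set means, leaving 27022 of 45037 probe sets. limma 3.58.1 in R 4.3.3 fitted group and a block for dim arrays (trimmed mean, less 2% per end, below 0.5 of the arrays' median), with a variance trend and 5 residual degrees of freedom, checked on simulated data. Members, gene lists and the block were chosen with earlier results of these data known. The text names all members, up to 4 genes per related list and 3 per marker list by smallest p, and the 10 most similar genes. Sertoli cell, spermatogonial and macrophage markers below 0 at 25 weeks are named as well. Of 45101 probe sets, 34958 have 1 symbol, 932 several and 9211 none, and 34754 of the symbols matched RefSeq. Upstream sequences matched 9 of 10 genes, all but Odf1. The number of arrays limits the precision.

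Same-numbered arrays of the 25-week and control groups deviated together (r = 0.52, 0.52 and 0.69), although differently numbered replicates 1 and 2 did so as well (0.53 and 0.54), and both arrays numbered 3 are the dim ones. The numbers come from the titles, which mention no shared batch. For 18 weeks the correlations with control were 0 to 0.08. Alternatives were other scalings, pseudocounts and blocks, no filter, no trend, array weights and leaving out arrays.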

Additional observations from a re-analysis of the deposited data

How the results depend on the processing

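The 2 members called at 25 weeks became 0 with group alone, 0 without the variance trend, 5 others on the deposited scale (all higher, where the 2 are lower), 1 without the dim arrays and 1 with the replicate block, and 1 to 4 when single arrays were left out. On the deposited scale Tnp2 (0.08) and Odf2 (0.31) turned to above 0, on a scale where the median of all kept probe sets is 0.93 and relative to which they stood at −0.84 and −0.62. With array weights the count stayed at 2, but Tnp1 1438632_x_at (−0.42, limma adjusted p = 0.0429) took the place of Tnp2. For 25 against 18 weeks 5 members were called on the deposited scale and 3 with array weights, all higher, in place of 0. At 18 weeks 0 members were called under every alternative run.

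Of all probe sets, the 4017 called at 25 weeks became 0 with group alone, 10578 on the deposited scale (10571 higher and 7 lower, against 2308 and 1709), 2391 without the trend, 6592 with array weights and 2599 with the replicate block, and 1787 to 4178 without single arrays. The 396 at 18 weeks became 0 with group alone, 134 on the deposited scale (132 higher), 0 without the trend, 1086 with array weights, 1076 without the dim arrays, 964 with a block of 3 array sets and 19 with the replicate block (37 to 1043 without single arrays). For 25 against 18 weeks the 0 became 1806 on the deposited scale (1800 higher), 1550 with array weights, 441 without the dim arrays and 1707 with the block of 3 sets (0 to 389 without single arrays). The block of 3 sets rests its 25-week comparison with control on the dim pair alone. Its comparison of 25 with 18 weeks likewise takes the 25-week level from the dim 25-week array alone. Under that block Odf2 1439918_at moved from −0.49 to −0.94 at 25 weeks against control. The replicate block changed no other member's call. Pseudocounts of 1 and 16 left every member's call as it was, and so did median centring and dropping the filter. Where a value past the threshold under neither setting changed sign, no direction was read from it.

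These results rest on 3 arrays per group, a block chosen after the model with group alone had called nothing, and a scale between arrays that turns the sign of most members' 25-week differences from control. Of the 9 arrays, 4 are atypical in brightness or poly-A signal, and 3 of these are VAD 25-week arrays, so that group and array set cannot be told apart in full. Signal over background was not analysed here.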

Other observations

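Genes of the stage before the haploid phase moved in both directions at 25 weeks. Of 10 measured markers of pachytene spermatocytes, 3 rose and 2 fell relative to control, beside 8.54% and 6.32% of all probe sets. Sycp3, a protein of the synaptonemal complex, rose by 0.93 ± 0.12 log2 units (SE, n = 3 per group, limma adjusted p = 0.000916) and also at 18 weeks, by 0.80 ± 0.12 (limma adjusted p = 0.0123). Ccna1, the meiotic cyclin, fell by 0.90 ± 0.14 at 25 weeks (limma adjusted p = 0.00239), and the chaperone Hspa2 by 0.64 ± 0.16 (limma adjusted p = 0.0195). On the deposited scale Ccna1 and Hspa2 turned to 0.08 and 0.23, below the median of 0.93 for all kept probe sets. The summed normalized signal of the 10 markers was 9894 to 10388 in VAD 25-week preparations, 9992 to 10579 in VAD 18-week preparations and 8579 to 9599 in control preparations. Without the dim arrays it was 9894 to 10041 at 25 weeks and 8579 to 8734 in control. The brightest genes weigh most in such a sum, and the list's median log2 difference from control was 0.04 at 25 weeks and 0 at 18 weeks.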
